A study of Mus musculus with 8 samples.

Results

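Genes that build and mark the intestinal epithelium were followed in cells sorted as macrophages from the mouse colon. The set held 59 of the 14980 genes in the count table. Members were taken by symbol alone, as keratins, claudins, mucins, CEA family genes, zonula occludens genes, protocadherin-related Cdhr genes, trefoil factors, Reg lectins, Cdx and Esrp factors, plakophilins, the desmosomal cadherins Dsg2 and Dsc2, and 14 named genes such as Epcam, Vil1 and Car1. The libraries came from GPR35-positive (4) and GPR35-negative (4) MHCII+CD64+ cells of the colonic lamina propria, sorted by flow cytometry, and each of 4 male mice gave 1 library of each kind. GPR35 is a G protein-coupled receptor for small metabolites and lysophospholipids, and CD64 is the high-affinity Fc gamma receptor. The labels name no strain, age, genotype or treatment. By the labels' protocols, EDTA stripped the epithelium before collagenase and DNase freed the lamina propria cells, and RNA was purified from sorted cells lysed in Trizol.

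The colon is lined by a single sheet of absorptive colonocytes and mucus-secreting goblet cells. Type I and type II keratins pair to form the filaments of these cells, desmosomes tie the filaments of neighbours together, claudins and occludin seal the space between cells, and zonula occludens proteins hold the seal to actin. Macrophages lie just under this sheet and are not known for keratin filaments.

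Libraries held 33769639 to 48599893 counts in GPR35-positive cells and 15996622 to 30066596 counts in GPR35-negative cells. Gpr35 itself was at 73.3 ± 14.9 CPM (a gene's count scaled to a common effective library size by the trimmed mean of M values, TMM) in GPR35-positive libraries and 2.97 ± 1.46 CPM in GPR35-negative libraries (SD, n = 4 each). Of all tested genes 18.5% were higher and 19.5% lower in GPR35-positive cells. Each of 20 genes of macrophage identity passed as higher in the GPR35-positive sort, with a summed level of 48558 to 58189 CPM, against 5422 to 24285 CPM in GPR35-negative cells. In the GPR35-negative libraries the B and plasma cell list summed to more than the macrophage list. Most of this came from 1 gene, Jchain, at 67768 to 134297 CPM in GPR35-negative libraries. Xbp1, the next highest of the list, was at 2776 to 3799 CPM there. The order of the sums is therefore no measure of cell shares, for the B and plasma cell list above all. That list was lower in GPR35-positive cells, at 1393 to 2828 CPM in GPR35-positive and 73753 to 144273 CPM in GPR35-negative libraries, with 12 of 13 tested genes lower and 1 higher in GPR35-positive cells. Stromal genes were lower for 10 of 12 (163 to 1158 CPM in GPR35-positive and 3453 to 7854 CPM in GPR35-negative libraries) and endothelial genes for 5 of 10 (113 to 294 CPM in GPR35-positive and 283 to 1970 CPM in GPR35-negative libraries). T and innate lymphoid genes were lower for 9 of 12 (52.6 to 66.2 CPM in GPR35-positive and 346 to 624 CPM in GPR35-negative libraries) and erythroid genes for 5 of 5 (201 to 995 CPM in GPR35-positive and 777 to 5629 CPM in GPR35-negative libraries). Mast cell and eosinophil genes were lower for 2 of 4 (9.51 to 17.6 CPM in GPR35-positive and 63.0 to 241 CPM in GPR35-negative libraries), dendritic cell genes were higher for 2 of 8 (116 to 461 CPM in GPR35-positive and 53.5 to 256 CPM in GPR35-negative libraries), and none of 4 glial genes passed in edgeR without the animal block (1 had an unadjusted p under 0.05), while 4 passed with it. With the animal block the lower genes were 12 stromal, 7 endothelial, 5 T and innate lymphoid (with Il7r higher) and 1 of the mast cell and eosinophil list, and 3 dendritic cell genes were higher. Leave-outs were run without the block, for up to 3 called genes with the smallest p of each list. With the block and no library left out, Tek (edgeR adjusted p = 0.00217), Esam (0.00288) and Plvap (0.0024) passed, and Cpa3 did not (0.106). Of the endothelial genes, Tek fell out of the calls when replicate 4 was left out (edgeR adjusted p = 0.0538), Esam without replicate 4, GPR35-positive replicate 1, 2 or 4 or GPR35-negative replicate 3 or 4 (0.0505 to 0.118), and Plvap without these or replicate 2 (0.0504 to 0.134). The erythroid genes Hbb-bt, Hbb-bs and Hba-a1 lost theirs without replicate 2 or 4 (0.0579 to 0.0673). Cpa3 of the mast cell list was at -3.80, and at -2.36 without replicate 2. The part of these other cells in the results on the members was not tested. In bulk RNA, fewer cells of a type and less RNA per cell cannot be told apart.

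For 3 members the start region is printed, to show the DNA upstream of the most strongly supported decrease (Epcam), of the member with the highest level per length (Lypd8) and of a member that was higher (Ceacam19). Each is 250 bases before to 50 bases after a listed start of the gene, from RefSeq on GRCm38.p6, the build of the mm10 coordinates, read in the direction of the gene. For Ceacam19 that start lies inside the gene's annotated span and not at its edge. Capitals mark matches on either strand to 4 short motifs. The letters TATAAA were searched as the core promoter box and the letters GGGCGG as the box bound by SP1-like factors, hereafter the GC box. The letters TTTATG were searched as a core of sites bound by CDX factors, and the letters GAGGAAG as a core of sites bound by PU.1. Epcam lies at chr17:87635729-87636028 (plus strand), Lypd8 at chr11:58378782-58379081 (plus strand, the first of its listed starts) and Ceacam19 at chr7:19887916-19888215 (minus strand).
Epcam: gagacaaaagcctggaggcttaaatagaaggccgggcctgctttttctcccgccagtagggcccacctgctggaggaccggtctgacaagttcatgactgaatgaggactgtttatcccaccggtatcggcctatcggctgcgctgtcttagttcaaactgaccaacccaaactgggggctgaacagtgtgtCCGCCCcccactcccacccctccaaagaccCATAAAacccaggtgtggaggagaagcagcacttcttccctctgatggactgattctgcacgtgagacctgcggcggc
Lypd8: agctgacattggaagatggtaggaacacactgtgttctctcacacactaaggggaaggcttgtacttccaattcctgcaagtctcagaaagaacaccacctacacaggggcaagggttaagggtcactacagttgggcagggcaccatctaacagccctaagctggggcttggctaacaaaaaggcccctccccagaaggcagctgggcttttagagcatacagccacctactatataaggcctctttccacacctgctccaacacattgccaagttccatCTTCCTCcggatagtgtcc
Ceacam19: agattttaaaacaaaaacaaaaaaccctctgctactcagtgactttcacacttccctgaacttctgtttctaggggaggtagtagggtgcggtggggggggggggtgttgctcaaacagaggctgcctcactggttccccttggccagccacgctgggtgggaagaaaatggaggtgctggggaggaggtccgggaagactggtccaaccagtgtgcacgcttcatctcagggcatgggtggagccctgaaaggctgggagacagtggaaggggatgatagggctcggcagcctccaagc
The Epcam window held a GC box and a CDX core, both on the opposite strand, the Lypd8 window held a PU.1 core on the opposite strand, and the Ceacam19 window held no match. Over the 51 promoter windows listed for 41 members, 13.7% held the CDX core, against 11.9% of all 32851 windows, and 15.7% held the PU.1 core, against 13.6% of all windows. The GC box stood in 37.3% of member windows and 35.7% of all windows, and the core promoter box in 15.7% of member windows and 13.6% of all windows. None of the motif searches overlapped another in these 3 windows, and a match describes letters only.

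Of the 59 members, 52 had enough counts to be tested and 7 did not (Pkp2, Krt83, Muc1, Muc20, Tff1, Tff3 and Reg4). Between GPR35-positive and GPR35-negative cells 10 members were lower and 2 higher in edgeR's quasi-likelihood test at an adjusted p of 0.05 over all genes, and 40 did not pass. Of all 14184 tested genes 38% passed in either direction. The share lower among members (19.2%) was close to the 19.5% of all tested genes that were lower, and the share higher (3.85%) stood against 18.5% of all genes. The split over all genes was 2617 higher and 2769 lower, against 1692 and 4193 under library size scaling and 67 and 12240 under scaling to macrophage identity genes. With the animal as a block 11 members were lower and 2 higher, against 20% and 19.4% of all genes. The lower members were Epcam, Pkp3, Krt222, Lypd8, Muc13, Elf3, Cldn10, Car4, Tjp1 and Car1, and the higher ones were Krt80 and Ceacam19. The median log2 fold change over the 52 tested members was -1.12, against -0.05 over all tested genes. In 22 of the 52 the GPR35-positive library was lower in all 4 animals (29.4% of all genes), in 4 it was higher in all 4 animals (29.4% of all genes), and 26 were mixed. The groups did not overlap for 12 members with GPR35-positive cells below (20.6% of all genes) and for 3 with GPR35-positive cells above (21.5% of all genes).

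**Figure D1:**
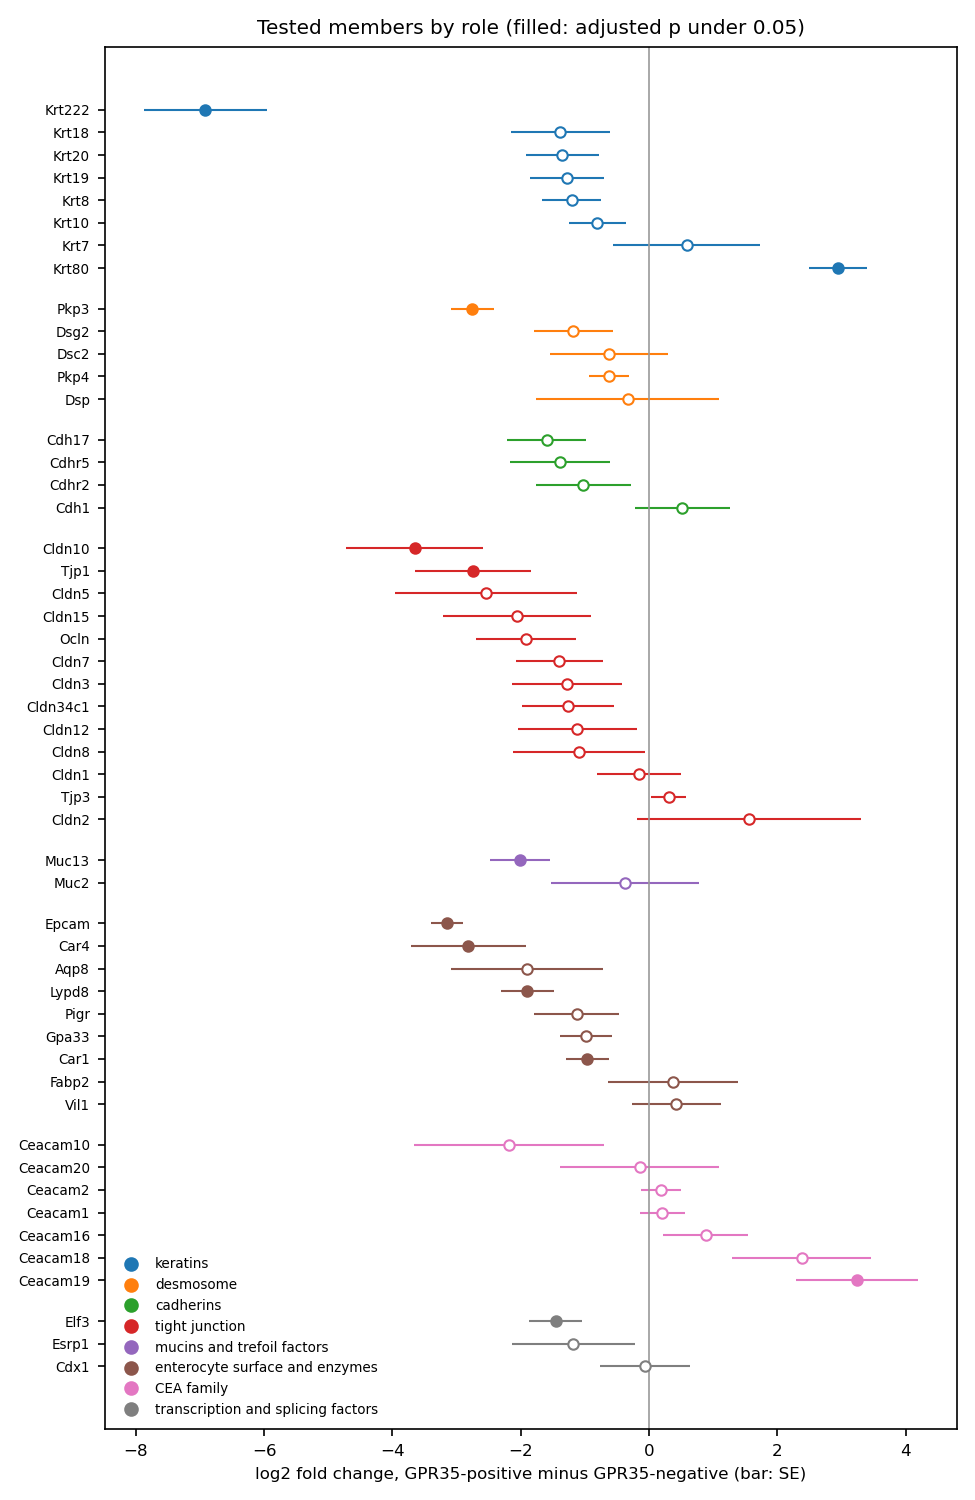
Log2 fold change of 51 tested members (x axis, GPR35-positive minus GPR35-negative, bars are SE from edgeR), grouped by role, with filled points for those past the threshold. Most points lie left of 0, and Krt80 and Ceacam19 are the filled points to its right.

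The members together summed to 275, 291, 428 and 413 CPM in GPR35-positive replicates 1 to 4, against 433, 622, 1271 and 832 CPM in GPR35-negative replicates 1 to 4. Each GPR35-positive sum lay below every GPR35-negative sum. Within animals the log2 ratio was -0.66, -1.10, -1.57 and -1.01 for replicates 1 to 4. The members took 0.0243% to 0.0407% of all counts in GPR35-positive libraries and 0.0472% to 0.146% in GPR35-negative libraries. Leaving Epcam out, the sums were 267 to 414 CPM in GPR35-positive and 353 to 1144 CPM in GPR35-negative libraries, and these ranges overlapped. Since the members were chosen with earlier results known, the sum is a description and was not tested.

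Read per length, as CPM divided by the deposited gene length in kilobases (RPKM), 5 members had the highest averages in GPR35-negative cells. Lypd8, a secreted surface protein that keeps flagellated bacteria off the colonic lining, was at 33.0 ± 10.7 RPKM in GPR35-positive and 123.1 ± 67.1 RPKM in GPR35-negative libraries (SD, n = 4 each). Epcam, a cell adhesion molecule of epithelia, was at 5.62 ± 1.64 RPKM in GPR35-positive and 50.1 ± 9.74 RPKM in GPR35-negative libraries. Car1, a cytosolic carbonic anhydrase of colonocytes and red cells, followed at 22.9 ± 6.74 RPKM in GPR35-positive and 44.7 ± 17.1 RPKM in GPR35-negative libraries. Krt8 was at 16.2 ± 4.17 RPKM in GPR35-positive and 37.4 ± 25.4 RPKM in GPR35-negative libraries, and Krt19 at 13.8 ± 5.31 RPKM in GPR35-positive and 33.5 ± 27.1 RPKM in GPR35-negative libraries. In GPR35-negative cells each of these overlapped its neighbour in the order within 1 SD, Lypd8 and Epcam included. In GPR35-positive cells the order was Lypd8, Car1, Krt8, Krt19 and then Krt80 (13.7 ± 1.71 RPKM), and Epcam had rank 8. Neighbours among the first 5 overlapped within 1 SD there too. The median tested gene was at 6.46 RPKM in GPR35-positive and 6.70 RPKM in GPR35-negative libraries. Above it lay 6 members in GPR35-positive cells and 12 in GPR35-negative cells, and 27 members reached 1 RPKM on average in GPR35-positive cells and 39 in GPR35-negative cells.

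**Figure D2:**
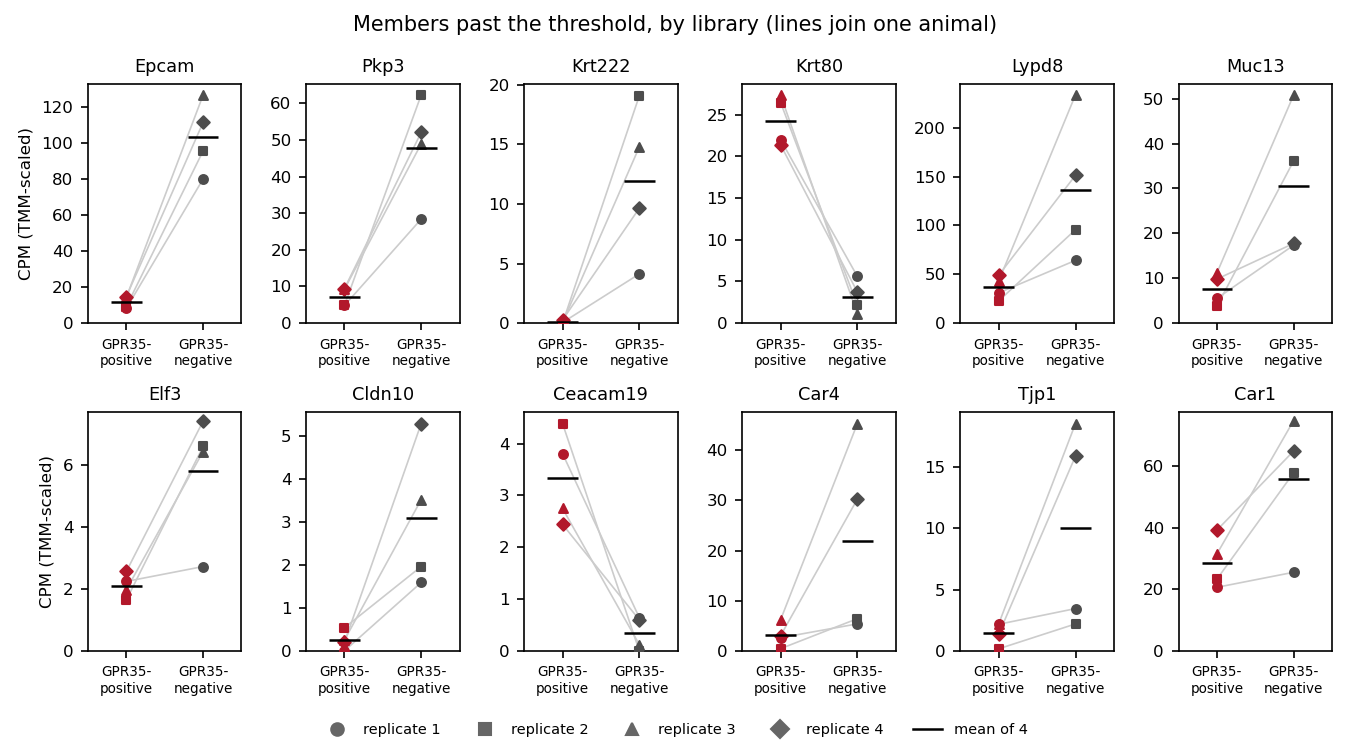
CPM (y axis, from 0, TMM-scaled) of the 12 members past the threshold in each library, GPR35-positive left and GPR35-negative right, with a line joining the libraries of 1 animal and a bar at the mean of 4. All but Car1, Car4 and Tjp1 separate fully between groups, and Car4 and Tjp1 are high mainly in GPR35-negative replicates 3 and 4.

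Among keratins 1 of 8 tested was higher, 1 lower and 6 did not pass, against 18.5% higher and 19.5% lower of all tested genes. Krt80 (chromosome 15, 101348315 to 101370162, with positions on GRCm38.p6 throughout), a type II keratin, was at 22.0, 26.4, 27.3 and 21.4 CPM in GPR35-positive replicates 1 to 4, against 5.59, 2.14, 1.12 and 3.72 CPM in GPR35-negative replicates 1 to 4. Every GPR35-positive library lay above every GPR35-negative one. Krt80 thus had a log2 fold change of 2.94 ± 0.45 (SE; edgeR adjusted p = 0.00154). Under macrophage identity scaling it was 0.68 (edgeR adjusted p = 0.334), where the median of all tested genes was -2.65. Krt80 overlaps an annotated lncRNA and a microRNA, and since the library method does not mark strand, reads of overlapping genes cannot be told apart. The same holds for Krt222, Muc13, Cldn10, Ceacam1 and Ceacam2, which each overlap at least 1 annotated lncRNA. Krt222 (chromosome 11, 99232761 to 99244147), a small member of the keratin family, had 2, 0, 2 and 11 counts in GPR35-positive libraries, against 135, 321, 370 and 290 counts in GPR35-negative libraries. Its level was 0.0912 ± 0.12 CPM in GPR35-positive and 11.9 ± 6.46 CPM in GPR35-negative cells, a log2 fold change of -6.92 ± 0.96 (SE; edgeR adjusted p = 9.87e-04) and the most negative of the tested members.

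Krt8 and Krt19 are a type II and a type I keratin of simple epithelia. Krt8 was at 18.2, 30.5, 34.6 and 33.4 CPM in GPR35-positive replicates 1 to 4, against 29.2, 34.6, 128 and 78.1 CPM in GPR35-negative replicates 1 to 4. The groups overlapped, and GPR35-negative replicates 3 and 4 were the high ones. The log2 fold change of Krt8 was -1.21 ± 0.46 (edgeR adjusted p = 0.0665, and 0.0356 with the animal block). Krt19 was at 10.0, 17.2, 27.0 and 23.8 CPM in GPR35-positive libraries, against 17.8, 19.0, 99.5 and 53.4 CPM in GPR35-negative libraries, with a log2 fold change of -1.28 ± 0.57 (edgeR adjusted p = 0.106, and 0.0349 with the animal block). The ratio of Krt8 to Krt19 per length stayed between 1.01 and 1.42 in GPR35-positive and between 1.01 and 1.43 in GPR35-negative libraries. Krt18, the usual type I partner of Krt8, was less steady. It had 64, 98, 150 and 185 counts in GPR35-positive libraries, against 102, 18, 374 and 445 counts in GPR35-negative libraries, and the ratio of Krt8 to Krt18 per length was 5.74 to 9.45 in GPR35-positive and 4.10 to 25.1 in GPR35-negative libraries. Krt18 (-1.38 ± 0.77, adjusted p = 0.185), Krt20, a keratin of mature colonocytes (-1.35 ± 0.57, adjusted p = 0.0881), and Krt10 (-0.81 ± 0.44, adjusted p = 0.175) did not pass. Krt7, a keratin of ducts, had a log2 fold change of 0.58 ± 1.15 (adjusted p = 0.71). Krt83 was not tested, and its highest level was 0.15 CPM in GPR35-positive and 1.56 CPM in GPR35-negative libraries.

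Of the desmosome genes 1 of 5 tested was lower, against 19.5% of all tested genes. Pkp3 (chromosome 7, 141078229 to 141090511), a plakophilin that links desmosomal cadherins to keratin filaments, was at 4.81, 4.85, 9.24 and 9.42 CPM in GPR35-positive libraries, against 28.4, 62.3, 49.0 and 52.1 CPM in GPR35-negative libraries. No GPR35-positive library reached the lowest GPR35-negative one. Pkp3 fell by 2.76 ± 0.34 on the log2 scale (SE; edgeR adjusted p = 5.23e-04), and the difference lay between -3.66 and -2.40 in each animal. The other tested desmosome genes overlapped between groups. The desmosomal cadherins Dsg2 (-1.18 ± 0.62, adjusted p = 0.162) and Dsc2 (-0.63 ± 0.91, adjusted p = 0.614) did not pass, nor did the linker Dsp (-0.33 ± 1.42, adjusted p = 0.871) or Pkp4 (-0.62 ± 0.31, adjusted p = 0.148). Dsp, which anchors keratin to the desmosomal plaque, was at 0.187, 2.88, 1.12 and 0.39 CPM in GPR35-positive and 0.367, 4.81, 0.639 and 0 CPM in GPR35-negative libraries, so replicate 2 was the highest animal in both groups. The 0 in GPR35-negative replicate 4 allows up to 0.0997 CPM (3 counts, counting error only). Pkp2 was not tested and had at most 1.56 CPM in any library.

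None of the 4 cadherins passed in edgeR with TMM scaling and the filterByExpr filter, with or without the animal block, and 1 had an unadjusted p under 0.05. DESeq2 called 1, Cdh17 (adjusted p = 0.0235), and with the block it called Cdh17 and Cdhr5, against 25.4% and 25.5% of all tested genes lower. edgeR called Cdh17 under library size scaling (29.6% of all tested genes lower) and under a filter of 5 CPM in 4 libraries (23.7% lower). It called Cdh17, Cdhr2 and Cdhr5 under macrophage identity scaling, where 86.3% of all tested genes were lower. Cdh17, a cadherin of the intestinal lining that mouse B lineage cells also carry, was at 0.467, 2.54, 4.32 and 3.59 CPM in GPR35-positive libraries, against 6.36, 11.5, 10.2 and 5.09 CPM in GPR35-negative libraries. The groups did not overlap, and the log2 fold change was -1.60 ± 0.62 (edgeR adjusted p = 0.0695, and 0.0536 with the block). Cdh1, the E-cadherin of adherens junctions, was at 5.67, 9.21, 10.8 and 10.4 CPM in GPR35-positive libraries, against 0.397, 5.17, 11.3 and 8.34 CPM in GPR35-negative libraries. These overlapped, and GPR35-negative replicate 1 was the low one (log2 fold change 0.52 ± 0.74, adjusted p = 0.607). The brush border cadherins Cdhr2 (-1.02 ± 0.74, adjusted p = 0.302) and Cdhr5 (-1.38 ± 0.78, adjusted p = 0.189) overlapped between groups. Cdhr5 was still lower in the GPR35-positive library of all 4 animals (-1.77 to -0.73). Of 12 tested partners of adherens and tight junctions 3 were higher and 1 lower in GPR35-positive cells, against 18.5% and 19.5% of all tested genes. With the animal block 3 were higher and 2 lower, against 19.4% and 20% of all tested genes. F11r, a junctional adhesion molecule that leukocytes also carry, was at 256 ± 13.9 CPM in GPR35-positive and 42.0 ± 19.2 CPM in GPR35-negative cells (log2 fold change 2.61 ± 0.31, edgeR adjusted p = 4.81e-04). Jup, plakoglobin, was higher (0.76 ± 0.19, edgeR adjusted p = 0.0124, and 0.083 without replicate 4). F11r (-0.18) and Jup (-1.87) were negative under macrophage identity scaling, where the median of all tested genes was -2.65. The polarity gene Pard3 was lower in the main fit (-2.78 ± 0.40, edgeR adjusted p = 0.00113).

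Of 14 tight junction members 2 were lower and 12 did not pass, against 19.5% lower of all tested genes. Cldn10 (chromosome 14, 118787871 to 118874525), a claudin that forms ion-selective pores, was at 0, 0.536, 0.25 and 0.195 CPM in GPR35-positive libraries, against 1.59, 1.96, 3.52 and 5.29 CPM in GPR35-negative libraries. The groups did not overlap, with Cldn10 at a log2 fold change of -3.66 ± 1.06 (SE; edgeR adjusted p = 0.0251). Tjp1 (chromosome 7, 65296165 to 65527850), which encodes ZO-1, was at 2.17, 0.167, 2.22 and 1.39 CPM in GPR35-positive libraries, against 3.45, 2.20, 18.6 and 15.9 CPM in GPR35-negative libraries. It was lower in the GPR35-positive library of each animal, though the ranges overlapped (-2.75 ± 0.90, edgeR adjusted p = 0.0402). Its paralog Tjp3 had a positive fold change that did not pass (0.30 ± 0.27, adjusted p = 0.407). Per length, Tjp1 averaged 0.209 RPKM in GPR35-positive and 1.41 RPKM in GPR35-negative cells.

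GPR35-negative replicates 3 and 4 stood apart for several claudins. Cldn5, the claudin of blood vessel endothelium, had 46, 97, 118 and 122 counts in GPR35-positive libraries, against 16, 0, 798 and 821 counts in GPR35-negative libraries. Its level was 1.07 to 3.25 CPM in GPR35-positive cells, and in GPR35-negative cells it was 0.489, 0, 31.9 and 27.3 CPM in replicates 1 to 4. The fold change therefore turned with the animal, at 1.04, 5.74, -3.41 and -3.17 on the log2 scale in replicates 1 to 4 (edgeR adjusted p = 0.184). Cldn7, a claudin of the colonic epithelium, was at 2.36 to 6.37 CPM in GPR35-positive cells and at 5.65, 2.08, 21.8 and 19.8 CPM in GPR35-negative replicates 1 to 4 (-1.40 ± 0.68, adjusted p = 0.134). Cldn15, a pore-forming claudin of the gut, was at 0.42 to 1.52 CPM in GPR35-positive cells and at 0.611, 0.0594, 6.31 and 6.62 CPM in GPR35-negative replicates 1 to 4 (-2.06 ± 1.15, adjusted p = 0.185). The endothelial list put the GPR35-negative libraries in the order seen for Cldn5, at 290, 283, 1970 and 1125 CPM in GPR35-negative replicates 1 to 4, and so did the 4 glial genes, at 4.22, 1.84, 108 and 48.5 CPM. The order was not particular to these lists. Goblet cell genes (30.4, 18.4, 57.3 and 38.5 CPM) shared it, though much of their sum was Galnt12 (20.1, 11.4, 21.7 and 17.8 CPM), which had another order. The enteroendocrine sum (9.87, 7.90, 136 and 108 CPM) shared it too, but it covered 2 genes and was nearly all Cpe (9.38, 7.90, 134 and 104 CPM). The other epithelial lists had other orders. The part of RNA from any of these cell types in the claudin values was not tested. Cldn3 (-1.28 ± 0.85, adjusted p = 0.263), Cldn8 (-1.09 ± 1.02, adjusted p = 0.422) and Cldn12 (-1.12 ± 0.93, adjusted p = 0.368) overlapped between groups, as did Cldn1 (-0.16 ± 0.65, adjusted p = 0.867), which was at 0.583 CPM in GPR35-positive replicate 1 and at 7.20 to 8.64 CPM in the other GPR35-positive libraries. Ocln, occludin, was at 0.0933 to 1.41 CPM in GPR35-positive and 1.83 to 4.22 CPM in GPR35-negative libraries, without overlap (-1.92 ± 0.78, adjusted p = 0.08). Cldn34c1 was likewise without overlap (-1.26 ± 0.72, adjusted p = 0.192), and Cldn2, with a count in 4 of 8 libraries, was at 1.56 ± 1.74 (adjusted p = 0.507).

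**Figure D3:**
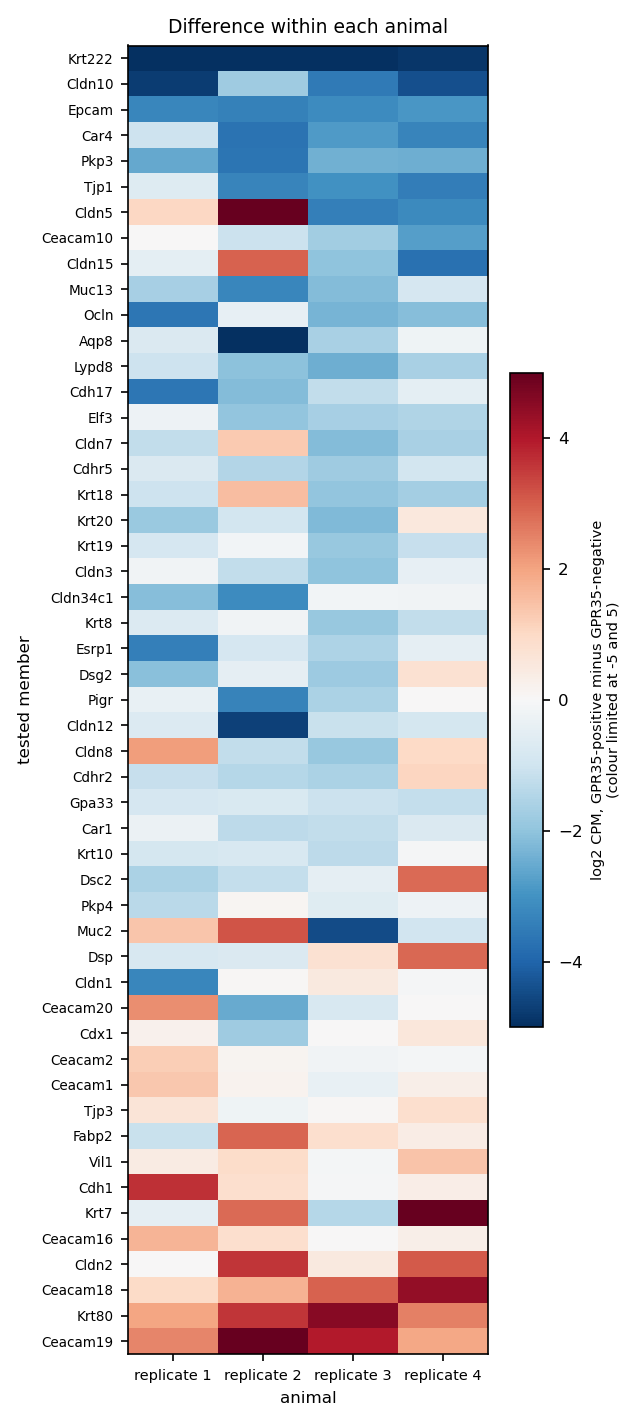
Difference in log2 CPM (colour, GPR35-positive minus GPR35-negative, limited at -5 and 5) for 51 tested members (rows, sorted by fitted fold change) in the 4 animals (columns). Epcam and Pkp3 are blue in all 4 columns, whereas Cldn5 is red in replicates 1 and 2 and blue in replicates 3 and 4.

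Mucus genes were sparse, and of 2 tested 1 was lower (19.5% of all tested genes). Muc13 (chromosome 16, 33794037 to 33819929), a transmembrane mucin of the colonic surface, was at 5.48, 3.75, 11.2 and 9.81 CPM in GPR35-positive libraries, against 17.4, 36.1, 50.8 and 17.8 CPM in GPR35-negative libraries. The groups did not overlap, with Muc13 at a log2 fold change of -2.01 ± 0.47 (SE; edgeR adjusted p = 0.00971, and 0.0508 without replicate 2). Muc2, the gel-forming mucin of goblet cells, had 49, 30, 1 and 26 counts in GPR35-positive libraries, against 13, 1, 47 and 39 counts in GPR35-negative libraries, and did not pass (-0.38 ± 1.15, adjusted p = 0.813). Tff3, the goblet cell trefoil factor, had at most 24 counts in a GPR35-positive library and had 67 counts in GPR35-negative replicate 3. The membrane mucins Muc1 and Muc20 were not tested, and their highest levels were 0.293 CPM and 0.25 CPM in GPR35-positive libraries, against 2.28 CPM and 4.04 CPM in GPR35-negative libraries. Tff1, a trefoil factor known from the stomach, had 151 and 198 counts in GPR35-positive replicates 3 and 4 and 0 in replicates 1 and 2, against 0, 0, 1 and 0 counts in GPR35-negative libraries. An overlapping lncRNA had 71 and 104 counts in the same GPR35-positive replicates 3 and 4, so these reads cannot be assigned to 1 gene. Reg4, a lectin of deep crypt secretory cells, had 14, 7, 13 and 10 counts in GPR35-positive libraries, against 0, 1, 81 and 68 counts in GPR35-negative libraries. Of 12 goblet cell genes outside the members 8 were in the table and 7 were tested, and none passed in edgeR with or without the block, while 1 had an unadjusted p under 0.05. The list summed to 28.3 to 34.8 CPM in GPR35-positive and 18.4 to 57.3 CPM in GPR35-negative libraries.

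Of the 9 enterocyte surface and enzyme genes 4 were lower, against 19.5% of all tested genes. Epcam (chromosome 17, 87635979 to 87651127), which was named above for its start region, was at 8.19, 9.17, 14.3 and 14.7 CPM in GPR35-positive libraries, against 79.9, 95.5, 126 and 111 CPM in GPR35-negative libraries. The groups were far apart, and the log2 fold change of -3.16 ± 0.25 (SE; edgeR adjusted p = 7.68e-05) ran from -3.37 to -2.91 within animals. Lypd8 (chromosome 11, 58379032 to 58390541) was at 31.0, 22.8, 43.3 and 49.2 CPM in GPR35-positive libraries, against 64.2, 95.7, 234 and 152 CPM in GPR35-negative libraries. Its groups did not overlap either (-1.90 ± 0.41, edgeR adjusted p = 0.00703). Car4 (chromosome 11, 84957754 to 84966054), a membrane carbonic anhydrase of colonocytes and capillaries, was at 2.61, 0.435, 6.24 and 3.05 CPM in GPR35-positive libraries, against 5.38, 6.42, 45.4 and 30.3 CPM in GPR35-negative libraries. GPR35-negative replicates 3 and 4 were again the high ones, and the ranges overlapped (-2.82 ± 0.90, edgeR adjusted p = 0.0355). Car1 (chromosome 3, 14766214 to 14808365) was at 20.6, 23.3, 31.5 and 39.2 CPM in GPR35-positive libraries, against 25.5, 57.8, 74.8 and 64.9 CPM in GPR35-negative libraries. The fall was smaller and lay at the threshold (-0.96 ± 0.34, edgeR adjusted p = 0.0498, and 0.0162 with the block), and the erythroid genes, with which Car1 shares a cell type, were lower for 5 of 5, with the losses given above for replicates 2 and 4. Their part in the Car1 values was not tested. Pigr, the receptor that carries polymeric immunoglobulin across the epithelium, was at 11.9, 2.21, 20.3 and 20.1 CPM in GPR35-positive libraries, against 15.3, 23.2, 61.4 and 19.7 CPM in GPR35-negative libraries, and did not pass (-1.13 ± 0.66, adjusted p = 0.204). Gpa33, an intestinal surface antigen, was below in all 4 animals without passing (-0.99 ± 0.41, adjusted p = 0.0834), and the water channel Aqp8 had -1.90 ± 1.19 (adjusted p = 0.232). Vil1, the actin bundler of microvilli (0.42 ± 0.70, adjusted p = 0.658), and Fabp2, a fatty acid carrier (0.37 ± 1.01, adjusted p = 0.791), had positive fold changes that did not pass.

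The calls differed in how many libraries they needed in the fit without the animal block, which all leave-outs used. With the block and no library left out, Tjp1 (edgeR adjusted p = 0.0168), Car4 (0.00727), Cldn10 (0.0314) and Car1 (0.0162) passed. Those of Epcam, Pkp3, Krt222, Lypd8 and Krt80 held when any 1 animal or any 1 library was left out. The call of Tjp1 ended without replicate 1, 3 or 4 and without any of the GPR35-positive libraries or GPR35-negative replicate 3 or 4 (edgeR adjusted p = 0.0552 to 0.176). Car4 ended without replicate 1, 3 or 4, without GPR35-positive replicate 1, 2 or 4, and without GPR35-negative replicate 3 or 4 (0.0557 to 0.152). Cldn10 ended without replicate 3 or 4, in full or for either library alone (0.0527 to 0.140). Car1 ended without replicate 2, 3 or 4, without GPR35-positive replicate 1, 2 or 3, and without GPR35-negative replicate 2, 3 or 4 (0.0837 to 0.188), and also with no filter on low counts (0.0526).

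Ratios to Epcam differed between the groups for several members. For each Epcam count, Krt8 had 2.22 to 3.32 counts in GPR35-positive libraries and 0.362 to 1.01 counts in GPR35-negative libraries. Krt19 had 1.23 to 1.89 counts for each Epcam count in GPR35-positive and 0.199 to 0.786 in GPR35-negative libraries. Car1 had 2.21 to 2.67 in GPR35-positive and 0.319 to 0.605 in GPR35-negative libraries, and Lypd8 had 2.49 to 3.78 in GPR35-positive and 0.804 to 1.85 in GPR35-negative libraries. None of these ranges overlapped. Muc13 did not overlap either, at 0.409 to 0.783 in GPR35-positive and 0.159 to 0.402 in GPR35-negative libraries. Pkp3 had 0.529 to 0.648 counts for each Epcam count in GPR35-positive and 0.355 to 0.652 in GPR35-negative libraries, which overlapped. Pigr overlapped too, at 0.241 to 1.45 in GPR35-positive and 0.177 to 0.485 in GPR35-negative libraries. Epcam made up 2.98% to 3.56% of all member counts in GPR35-positive libraries and 9.95% to 18.4% in GPR35-negative libraries. Epcam was itself lower in GPR35-positive cells, so a member with a smaller decrease is higher for each Epcam count, and the ratios restate the fold changes. These ratios were chosen after the values were seen and are given without a test.

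**Figure D4:**
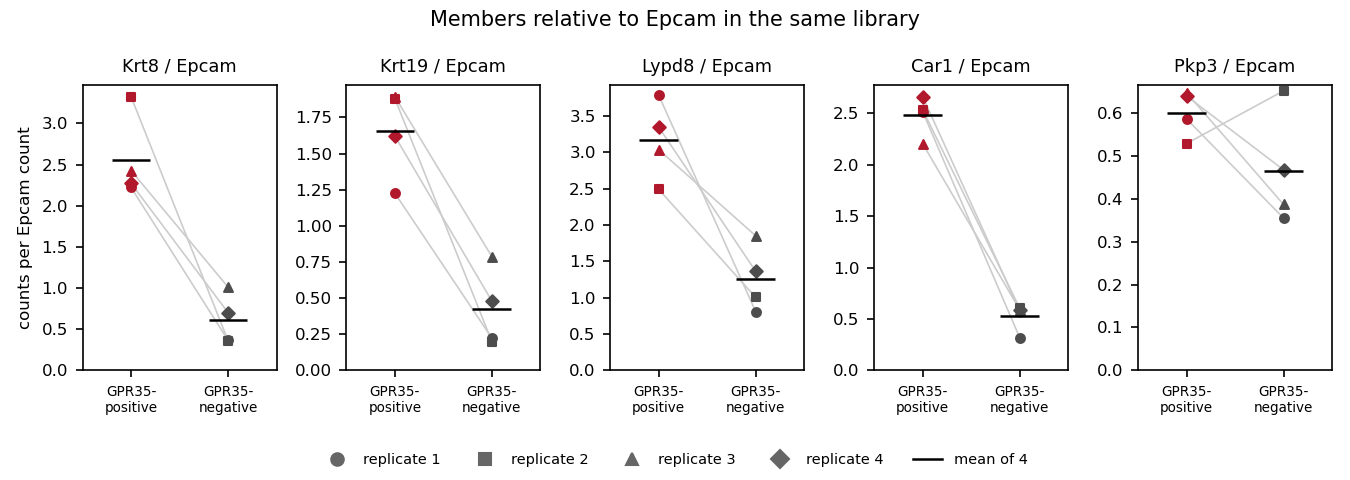
Counts of 5 members divided by the Epcam count of the same library (y axis, from 0), GPR35-positive left and GPR35-negative right, with lines joining animals and a bar at the mean of 4. Krt8, Krt19, Lypd8 and Car1 are all higher relative to Epcam in GPR35-positive libraries, while Pkp3 overlaps.

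Of the 7 CEA family genes 1 was higher (18.5% of all tested genes) and 6 did not pass, with a median log2 fold change of 0.21. Ceacam19 (chromosome 7, 19875742 to 19887990), a member of little known function, was at 3.80, 4.39, 2.75 and 2.44 CPM in GPR35-positive libraries, against 0.642, 0, 0.12 and 0.598 CPM in GPR35-negative libraries. All GPR35-positive libraries were above all GPR35-negative ones (log2 fold change 3.24 ± 0.95, edgeR adjusted p = 0.0258). Under macrophage identity scaling the fold change was 0.91 (edgeR adjusted p = 0.478), where the median of all tested genes was -2.65. The call ended without replicate 1, 3 or 4, without any of the GPR35-positive libraries and without GPR35-negative replicate 3 (adjusted p = 0.0501 to 0.0995). With the animal block and no library left out, the edgeR adjusted p of Ceacam19 was 0.0438. Ceacam18 was at 0.536 to 1.24 CPM in GPR35-positive and 0 to 0.52 CPM in GPR35-negative libraries (2.38 ± 1.08, adjusted p = 0.112), and it overlaps Siglece, an abundant macrophage gene. Ceacam1, an inhibitory adhesion receptor of epithelium and leukocytes, was at 29.4, 27.2, 35.4 and 30.6 CPM in GPR35-positive libraries, against 11.5, 24.2, 45.8 and 25.0 CPM in GPR35-negative libraries. These overlapped (0.21 ± 0.35, adjusted p = 0.669). Ceacam2, a close copy of Ceacam1 that can share its reads, was likewise at 0.19 ± 0.31 (adjusted p = 0.665). Ceacam16 (0.88 ± 0.66, adjusted p = 0.317), Ceacam20 (-0.15 ± 1.24, adjusted p = 0.934) and Ceacam10 (-2.18 ± 1.47, adjusted p = 0.268) did not pass.

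Of the 3 regulators Elf3 alone passed in the fit without the block, where 19.5% of all tested genes were lower. Elf3 (chromosome 1, 135253574 to 135258472), an ETS factor of epithelial differentiation, was at 2.24, 1.64, 1.97 and 2.56 CPM in GPR35-positive libraries, against 2.72, 6.60, 6.43 and 7.41 CPM in GPR35-negative libraries. The groups did not overlap, with GPR35-negative replicate 1 the lowest of its group (-1.46 ± 0.42, edgeR adjusted p = 0.0228, and 0.0579 with the animal block). The call also ended without replicate 2, 3 or 4, without GPR35-positive replicate 1, 2 or 3 and without GPR35-negative replicate 3 (0.0529 to 0.120). The splicing factor Esrp1 (-1.18 ± 0.96, adjusted p = 0.354) and the homeobox factor Cdx1, which sets intestinal identity (-0.06 ± 0.70, adjusted p = 0.951), did not pass. Cdx1 was at 0.77 to 6.39 CPM in GPR35-positive and 1.62 to 6.35 CPM in GPR35-negative libraries.

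Other epithelial genes, from lists outside the members, gave mixed directions. The counts below stand against 18.5% higher and 19.5% lower in GPR35-positive cells over all tested genes. Of 12 tested genes of absorptive colonocytes 2 were higher and 3 lower in GPR35-positive cells. The sugar phosphate exchanger Slc37a2 (140 ± 23.4 CPM in GPR35-positive and 29.8 ± 19.6 CPM in GPR35-negative cells, 2.23 ± 0.40, edgeR adjusted p = 0.00322) and the aminopeptidase Anpep (2.72 ± 0.34, edgeR adjusted p = 5.52e-04) are both also known from myeloid cells. Slc37a2 was at -0.031 under macrophage identity scaling, where the median of all tested genes was -2.65. The list summed to 182 to 232 CPM in GPR35-positive libraries, most of it from these 2 genes, and to 117 to 178 CPM in GPR35-negative libraries, whereas the other 10 tested genes had negative fold changes and the list's median was -1.36. Lgals4, a galectin of the gut lining, was at 24.8 ± 4.92 CPM in GPR35-positive and 58.0 ± 23.6 CPM in GPR35-negative cells (-1.23 ± 0.31, edgeR adjusted p = 0.0133, and 0.0560 to 0.0688 without replicate 3 or 4). Among 24 tested pan-epithelial genes 1 was higher and 4 lower. Spint1, a membrane inhibitor of serine proteases, was at 412 ± 32.2 CPM in GPR35-positive and 13.1 ± 4.57 CPM in GPR35-negative cells (4.98 ± 0.28, edgeR adjusted p = 1.79e-05). Its paralog Spint2 was at 11.7 ± 4.16 CPM in GPR35-positive and 181 ± 51.6 CPM in GPR35-negative cells (-3.95 ± 0.32, edgeR adjusted p = 9.28e-05), so the 2 inhibitors went opposite ways. Pls1, a microvillar actin bundler, was lower (-5.10 ± 0.23, edgeR adjusted p = 9.14e-06). Crypt stem and progenitor genes were lower for 2 of 8 (Znrf3 and Prom1), and enteroendocrine genes for 1 of 2 (Cpe). Of 10 tuft cell genes 4 were in the table and tested, and 1 was lower (Dclk1). Gnat3 (0.96) and Alox5 (0.71) had positive fold changes that did not pass, Ltc4s was at -0.07, and the median of the tuft list was 0.32. With the animal block Cpe (edgeR adjusted p = 3.49e-04), Znrf3 (0.00242) and Dclk1 (0.0123) passed and Prom1 did not. The leave-outs were run without the block, and each of these calls ended in some of them. Prom1 was at -2.29 (edgeR adjusted p = 0.0299, and 0.115 with the block), at -1.18 (0.212) without replicate 3 and at -1.44 (0.116) without GPR35-negative replicate 3. The call of Znrf3 ended without replicate 1 or 3, GPR35-positive replicate 1 or 4, or GPR35-negative replicate 2 (0.0522 to 0.0717). That of Dclk1 ended without replicate 3 (0.0527), and that of Cpe (adjusted p = 0.0448) without any 1 of the 4 animals and without 5 single libraries, GPR35-positive replicate 1, 2 or 4 and GPR35-negative replicate 3 or 4 (0.0540 to 0.165). The 3 defining stem markers Lgr5, Ascl2 and Axin2 and 11 of the 13 enteroendocrine genes were not analysed here.

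**Figure D5:**
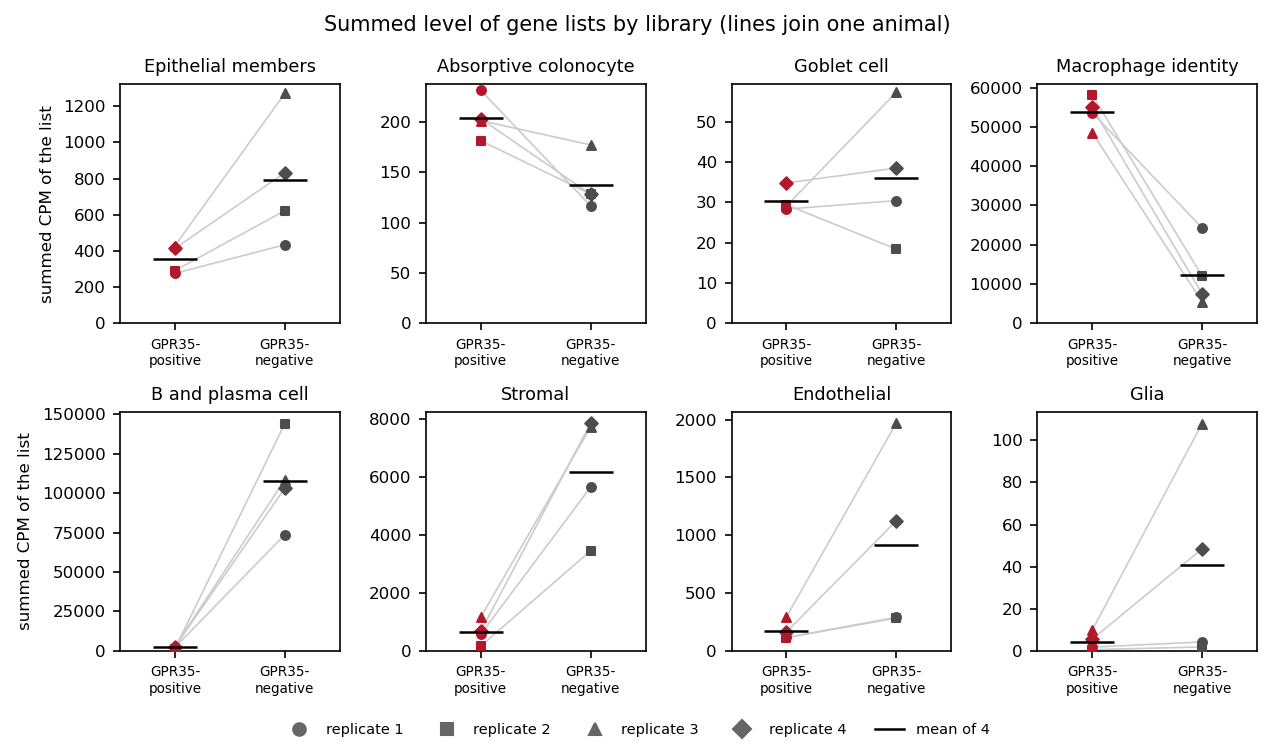
Summed CPM of 8 gene lists (y axis, from 0) in each library, GPR35-positive left and GPR35-negative right, with lines joining animals and a bar at the mean of 4. The epithelial members and the B and plasma cell, stromal, endothelial and glial lists are higher in the GPR35-negative library of each animal, macrophage identity and absorptive colonocyte lists (the second mostly Slc37a2 in GPR35-positive libraries) are higher in the GPR35-positive library of each animal, and goblet cell sums overlap.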

How the data were processed

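RNA was measured in 8 libraries, 4 of GPR35-positive and 4 of GPR35-negative MHCII+CD64+ colonic cells, which the labels call macrophages. SMART-Seq v4 amplification and Nextera XT libraries (per the labels' protocols) mark no strand and carry no molecular identifiers. The authors deposited raw counts per gene. The submitters' processing notes list STAR 2.5.2a, R 3.4.2 and the build mm10, with no counting tool or annotation named. A deposited gene length column (in bases) served for levels per length. The 9 rows with no symbol (0.0179% of counts) were left out. Every gene with a symbol in the table reached at least 18 counts in some library.

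The filterByExpr step (10 counts, total 15) left 14184 genes. edgeR 4.0.16 under R 4.3.3 fitted a robust quasi-likelihood model with TMM scaling and no block, with Benjamini-Hochberg adjustment over all genes and a threshold of 0.05. SE was the absolute log2 fold change divided by the root of F, and every fold change was taken as GPR35-positive minus GPR35-negative. Differences within animals used log2 CPM with a prior count of 2. Counting intervals and floors (3 counts) cover counting error only. The fit was tested on simulated data. No 2 libraries of a group agreed within sampling noise (smallest chi-square per degree of freedom 26.1).

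The labels give an animal number to each library, so the numbers pair the libraries. Departures of same-animal libraries from the group mean had a correlation over genes of 0.206, 0.206, 0.431 and 0.0637 in replicates 1 to 4, against at most 0.104, 0.104, 0.237 and 0.237 with the library of another animal, so replicate 4 was not closest to its own pair (genes are not independent replicates). Alternatives were other scalings, among them scaling to macrophage identity genes, other filters, DESeq2 1.42.0, limma 3.58.1 voom, the animal block, thinned libraries, and leaving out each animal or library. The members and gene lists were chosen with earlier results of these data known. The rule for named genes took every member past the threshold with or without the block, every member averaging at least 1 CPM in a group, fixed epithelial markers, and up to 3 genes with the smallest p of each list, of which the text gives those that passed and bear on the members. Gene IDs of all 59 members matched the RefSeq annotation of GRCm38.p6, from which coordinates come. The values of 1 tested member are not reported here, though it stays in the counts and sums over members.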

Additional observations from a re-analysis of the deposited data

Results flagged for a closer look

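Among 138 sets of 4 libraries (52 tested members and 17 summed levels in each group), 5 held a library far from the other 3, and chance flags about 1 in 20 such sets. Dsp was at 4.81 CPM in GPR35-negative replicate 2, against 0 to 0.639 CPM in the other GPR35-negative libraries. Vil1 was at 5.11 CPM in GPR35-negative replicate 3, against 0.832 to 1.31 CPM in the others. Cldn2 was at 0.719 CPM in GPR35-negative replicate 3 and at 0 in the others. Cldn5 was at 1.07 CPM in GPR35-positive replicate 1, against 2.95 to 3.25 CPM in the other GPR35-positive libraries. The goblet cell list summed to 34.8 CPM in GPR35-positive replicate 4, against 28.3 to 29.4 CPM in the others.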

How the results depend on the processing

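Over 51 tested members and 25 other settings, 1048 values kept direction and side of the threshold, 90 gained a call, 54 lost one and 46 changed sign. Scaling to macrophage identity genes put the median log2 fold change at -2.65 over all genes (-0.05 as reported) and at -3.90 over the members (-1.12 as reported). Values under it are to be read against that shift of all genes. It left 67 genes higher and 12240 lower, 0 members higher and 44 lower, and a log2 ratio of the summed member CPM of -3.99 (-1.17 as reported); with the replicate block it left 96 genes higher and 11623 lower, 0 members higher and 40 lower. Krt80 (0.68, edgeR adjusted p = 0.334) and Ceacam19 (0.91, adjusted p = 0.478) lost their calls under it. Signs that changed under identity scaling, without and with the block, were those of Krt7 (-2.09, -0.63), Cdh1 (-2.44, -1.51), Fabp2 (-2.16, -1.70), Vil1 (-2.49, -1.69), Ceacam1 (-2.65, -2.10), Ceacam2 (-2.63, -2.18), Tjp3 (-2.40, -2.08), Ceacam16 (-1.78, -1.65), Ctss (-0.087, -0.047), Cybb (-0.51, -0.47), Spi1 (-0.20, -0.18) and Jup (-1.87, -1.62), and without the block also Cldn2 (-1.55), Slc37a2 (-0.031) and F11r (-0.18). Ctss, Cybb and Spi1 are among the macrophage identity genes that set this scaling, so their small values under it follow from its construction. Library size scaling gave 1692 genes higher, 4193 lower and 16 members lower, with Ceacam1 at -0.095 and Ceacam2 at -0.11. DESeq2 called 16 members lower, and 17 with the replicate block, against 25.4% and 25.5% of all tested genes. A filter of 5 CPM in 4 libraries left 19 members to test, with 1 higher. Ceacam19 was removed by that filter and so was not tested under it. Dsp was at 0.41 in limma voom, 0.52 with the replicate block and 0.56 with the block in DESeq2. The block added Krt8 and Krt19 to the lower members, ended the call of Elf3 and changed no other member's call. Leaving out an animal or a library gave 1572 to 2931 genes higher, 1680 to 3035 lower, 1 to 3 members higher, 6 to 13 lower and a summed log2 ratio of -1.36 to -0.84; the members called lower numbered 6 without replicate 3, replicate 4, GPR35-positive replicate 1, GPR35-positive replicate 2 or GPR35-negative replicate 3. Signs changed there for genes not past the threshold, with values of -0.66 to 0.47 for Cdx1, -0.042 to 0.60 for Ceacam1, -0.053 to 0.45 for Ceacam2, -0.65 to 0.94 for Ceacam20, -0.41 to 0.23 for Cldn1, -1.49 to 0.53 for Cldn8, -1.33 to 1.83 for Dsp, -0.0084 to 0.87 for Fabp2, -0.091 to 1.44 for Krt7 and -0.97 to 0.64 for Muc2. A count of 0 allows up to 0.0700 to 0.100 CPM in GPR35-positive and 0.0917 to 0.178 CPM in GPR35-negative libraries, which limits the rarest members.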
